A study of Mus musculus with 9 samples.

Results

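The messenger RNAs of 7 GABA-A receptor subunits were followed in mouse brain: the alpha subunits Gabra2, Gabra3, Gabra4 and Gabra5, the beta subunits Gabrb1 and Gabrb2, and the delta subunit Gabrd. They are 7 of 16 GABA-A subunit genes reported here, and 7 of 33641 genes in the deposited table, of which 17398 had enough counts to be tested. All 7 were among the tested genes, and together they had 27 transcripts of 105125. The subunits were chosen by name with earlier results of the same genotype comparisons known. Their levels and differences are therefore given as a description, with no p-value, and the calls that a fit over all genes gave them are counted but not read as evidence.

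The 9 libraries came from separate mice aged 7.5 months, 3 of each genotype, and from a dissected block of brain that took in the thalamus, the hypothalamus and the midbrain. The genotypes were WT, PG9V and PG9VN. The labels do not spell these names out. As the lines are generally known, both mutants lack progranulin (Grn) and also carry altered copies of a second gene, which differ between PG9V and PG9VN and are not described here. They are models of a lysosomal storage disease of the brain. No group had only 1 of the 2 altered genes, so their shares in a difference cannot be told apart, and sex, litter, batch and strain background are not labelled.

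GABA-A receptors are chloride channels opened by GABA, the main inhibitory transmitter of the brain. Each channel is a ring of subunits, usually alpha and beta subunits joined by a gamma or a delta subunit, and the alpha subunit sets much of its pharmacology and its place in the cell. Receptors with a gamma subunit mostly sit at synapses, whereas delta-containing receptors, which thalamic relay neurons build with the alpha4 subunit, lie outside synapses and carry a steady inhibitory current.

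Total estimated counts ran from 27150500 to 35349217 per library, and levels are given as CPM, which is counts scaled to a common library total, on library sizes scaled by the trimmed mean of M values (TMM). Grn stood at 50.1 ± 4.77 CPM in WT, 3.89 ± 1.15 CPM in PG9V and 4.17 ± 0.567 CPM in PG9VN (SD, n = 3 each), so both mutants had little of it. The library of PG9VN replicate 2 stood apart. Its 12 hypothalamus markers summed to 7.38 CPM against 387 and 557 CPM in its group mates, and its 8 markers of cortex and hippocampus summed to 2946 CPM against 609 to 1221 CPM in the other 8 libraries. It also had the largest deviation by transcript length. Against its group mates the median log2 deviation was 0.31 over the tenth of genes of lowest transcript length and -0.27 over the tenth of greatest length, where the other 8 libraries lay between -0.15 and 0.15. The part of that deviation in the results was not tested. Results that rest on it are given with and without it. WT replicate 1 and PG9V replicate 2 had 0.450 and 0.265 CPM of the Y-linked gene Ddx3y, and the other 7 libraries had 43.3 to 68.8 CPM.

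Gabra2 encodes the alpha2 subunit, which is known from synapses on the cell body and the start of the axon. It stood at 113, 115 and 127 CPM in the WT libraries, at 55.9, 57.7 and 53.1 CPM in PG9V, and at 53.9, 42.2 and 58.2 CPM in PG9VN. All 6 mutant libraries were below all 3 WT libraries, and the 2 mutant genotypes overlapped. The means were 118 ± 7.61, 55.6 ± 2.33 and 51.5 ± 8.26 CPM (SD, n = 3 each). On the log2 scale PG9VN differed from WT by -1.20 ± 0.12 and PG9V differed from WT by -1.09 ± 0.12 (estimate ± SE), which are 2.30-fold and 2.13-fold lower levels. PG9VN differed from PG9V by -0.11 ± 0.12. Without PG9VN replicate 2 the difference of PG9VN from WT was -1.08.

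The gene lies on the minus strand of chromosome 5. The table lists 6 Gabra2 transcripts, and the 4 whose mean reached 1 CPM in any genotype are described. Gabra2-203 (ENSMUST00000197284.4) has 10 exons and encodes the protein. Gabra2-204 (ENSMUST00000198625.4) is annotated as a target of nonsense-mediated decay and lacks the first 61 bases of exon 5. Gabra2-202 (ENSMUST00000197124.4) is annotated as a retained intron. It starts within the intron after exon 5, 731 bases past that exon, and keeps the last 901 bases of this intron in front of exon 6. The stretches by which these transcripts can be told apart are shown in the orientation of the RNA, read from the GENCODE M21 transcript with the same identifier and version. Coordinates are those of GRCm38, since the table gives none and its own build, mm39, was not used. The first sequence is exon 5 of the coding transcript, chr5:71014416-71014636, with the bases that Gabra2-204 lacks in capitals. The second is the end of the retained intron in lower case, joined to exon 6 in capitals, chr5:71012701-71012843.
Gabra2 exon 5: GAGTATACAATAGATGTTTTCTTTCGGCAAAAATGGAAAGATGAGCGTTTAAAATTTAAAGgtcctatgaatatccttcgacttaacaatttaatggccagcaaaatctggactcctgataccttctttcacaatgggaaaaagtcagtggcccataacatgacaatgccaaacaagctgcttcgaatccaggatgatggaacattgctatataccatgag
Gabra2 retained intron end and exon 6: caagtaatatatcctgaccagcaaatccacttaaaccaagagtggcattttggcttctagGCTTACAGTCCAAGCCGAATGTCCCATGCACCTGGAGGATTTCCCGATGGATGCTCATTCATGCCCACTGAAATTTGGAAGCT

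The coding transcript Gabra2-203 stood at 79.6, 82.3 and 91.9 CPM in WT, 30.9, 38.4 and 32.8 CPM in PG9V, and 34.3, 29.0 and 36.1 CPM in PG9VN. Its log2 differences from WT were -1.33 ± 0.12 in PG9VN and -1.30 ± 0.12 in PG9V, so every mutant library was below every WT library, as for the whole gene. Gabra2-204, which lacks the capital bases of exon 5, stood at 29.1, 27.7 and 30.5 CPM in WT, 15.3, 13.3 and 13.0 CPM in PG9V, and 11.2, 7.87 and 11.2 CPM in PG9VN. Its log2 differences were -1.51 ± 0.15 and -1.06 ± 0.15. This transcript was lower in all 6 mutant libraries, like the coding one, and its share of the gene's counts was 24.6% in WT, 25.0% in PG9V and 19.6% in PG9VN. The other transcript marked for decay, Gabra2-201 (ENSMUST00000000572.6), had 2.92 ± 0.426, 1.22 ± 0.623 and 1.12 ± 0.666 CPM.

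The retained-intron transcript went the other way. Gabra2-202, which holds the intron end shown in lower case, had 1.02, 1.19 and 0.603 CPM in WT, 7.43, 4.97 and 5.73 CPM in PG9V, and 6.73, 4.83 and 8.76 CPM in PG9VN. All mutant libraries were above all WT libraries, on 21.6 to 35.3 estimated counts per WT library and 130.9 to 251.9 per mutant library. The log2 differences from WT were 2.86 ± 0.32 in PG9VN and 2.69 ± 0.32 in PG9V, and between the mutants 0.17 ± 0.30. It made up 0.806% ± 0.296 of the gene's counts in WT, 10.9% ± 2.34 in PG9V and 13.0% ± 1.87 in PG9VN. The counts are estimates that share reads among overlapping transcripts, so a rise of this transcript's own bases and a shift in how reads were shared cannot be told apart in the table.

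**Figure D1:**
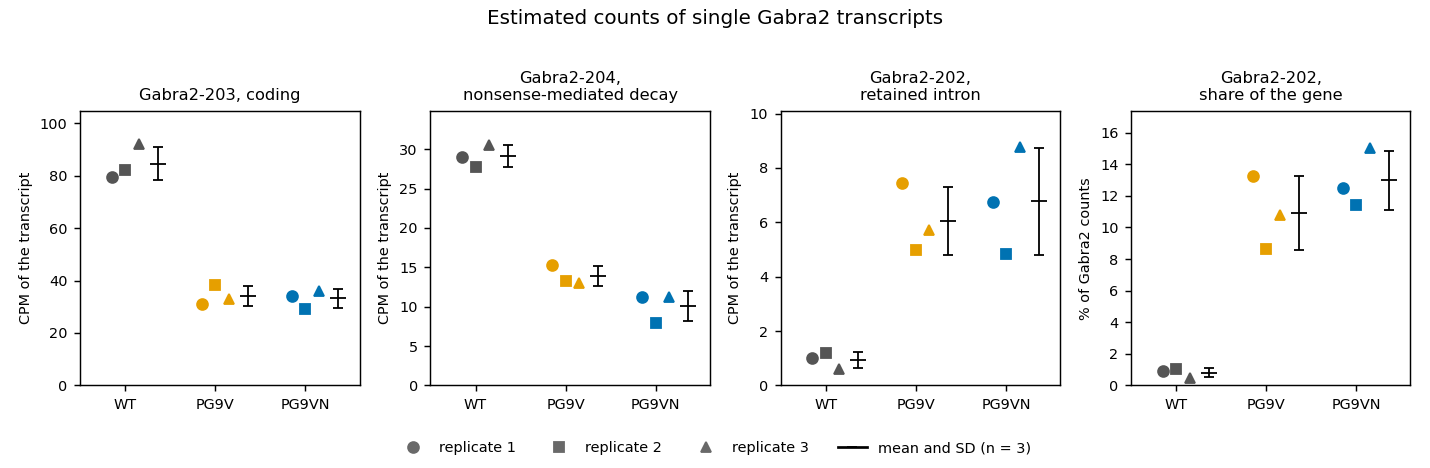
Scaled counts (CPM, vertical axis, from 0) of 3 single Gabra2 transcripts in each library of WT, PG9V and PG9VN, and in the last panel the percent of all Gabra2 counts that the retained-intron transcript held. Symbols are replicates and bars are the mean and SD (n = 3). The coding transcript lies at 79.6 to 91.9 CPM in WT and at 29.0 to 38.4 CPM in the mutants, and the retained-intron transcript at 0.603 to 1.19 CPM and 4.83 to 8.76 CPM.

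As background, mice of the C57BL/6J strain are known to carry a small deletion in an intron of Gabra2, next to a splice acceptor, that lowers its RNA and protein, and a separate deletion within Nnt, the gene of a mitochondrial proton pump that makes NADPH. The sequences above were printed to tell transcripts apart. The site of the Gabra2 deletion was not placed on them, and the retained intron end is not given as that site. Nnt stood at 40.1, 35.0 and 37.8 CPM in WT, at 19.6, 20.1 and 19.4 CPM in PG9V, and at 21.6, 18.2 and 21.8 CPM in PG9VN. It fell by 0.87 ± 0.09 on the log2 scale in PG9VN (edgeR's quasi-likelihood test with Benjamini-Hochberg adjustment, adjusted p = 0.000371) and by 0.94 ± 0.10 in PG9V (adjusted p = 0.00154). The coding Nnt transcript ENSMUST00000069902.12 was listed at 0 in all 3 WT libraries and at 3.37 to 8.12 CPM in the 6 mutant libraries. The main coding transcript, ENSMUST00000099149.9, had means of 35.8 CPM in WT, 12.5 CPM in PG9V and 13.0 CPM in PG9VN. It held 95.0%, 63.6% and 63.9% of the gene's counts. These counts too are estimates that share reads among overlapping transcripts. With no strain in the labels, the part of strain background in the Gabra2 difference and that of the 2 altered genes cannot be told apart. Nnt was also the gene nearest to Gabra2 by pattern, among 12554 genes whose mean reached 5 CPM. The measure was the root mean square difference of log2 CPM centred over the 9 libraries, 0.160 for Nnt, 0.200 for Rgs16 and 0.212 for Deptor, and 0.333 for the nearest of the other members, Gabrb2.

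Gabra3 encodes the alpha3 subunit, the alpha form of the reticular thalamic nucleus and of several brainstem groups. It stood at 105, 109 and 117 CPM in WT, at 91.4, 96.1 and 100.1 CPM in PG9V, and at 94.5, 58.0 and 81.9 CPM in PG9VN. Every mutant library was below every WT library, and the lowest was PG9VN replicate 2, the library that stood apart. The means were 110.5 ± 5.82, 95.9 ± 4.32 and 78.1 ± 18.5 CPM. The log2 difference was -0.50 ± 0.15 in PG9VN from WT, or -0.33 without PG9VN replicate 2. PG9V differed from WT by -0.20 ± 0.15. At least 97.4% of its counts in each library came from the coding transcript Gabra3-201, and the second coding transcript, Gabra3-202, had means of 1.59, 0.957 and 0.718 CPM. The genes nearest in pattern were Gnl3l (0.046), Grm7 (0.047) and Cntnap2 (0.053), and the nearest member was Gabrb1 (0.107).

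Gabra4 encodes the alpha4 subunit of the receptors outside synapses in thalamic relay neurons, where it pairs with delta. It stood at 112.7, 113.1 and 96.5 CPM in WT, at 70.9, 79.0 and 78.4 CPM in PG9V, and at 85.0, 85.8 and 67.9 CPM in PG9VN. Both mutants lay below WT and overlapped each other. The means were 107.5 ± 9.46, 76.1 ± 4.52 and 79.6 ± 10.1 CPM. The log2 differences from WT were -0.43 ± 0.11 in PG9VN and -0.50 ± 0.11 in PG9V, and PG9VN differed from PG9V by 0.06 ± 0.11. As for Gabra2, the difference between the mutants was within its error. The nearest genes in pattern were Epha5 (0.095), Kcnd2 (0.096) and Gjc1 (0.096), and the nearest member was its usual partner Gabrd (0.284).

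Gabra5 encodes the alpha5 subunit, best known from hippocampal pyramidal cells. It stood at 62.7, 44.3 and 76.3 CPM in WT, at 69.9, 45.0 and 51.7 CPM in PG9V, and at 34.0, 130.7 and 36.6 CPM in PG9VN. The high value was PG9VN replicate 2, where the markers of cortex and hippocampus were also high, and the other 2 PG9VN libraries were below all WT and PG9V libraries. The log2 difference of PG9VN from WT was 0.14 ± 0.49 with that library and -0.79 without it. From PG9V the difference was 0.27 ± 0.49 with it and -0.64 without it, and PG9V differed from WT by -0.14 ± 0.49. Its 3 coding transcripts held 45.3%, 42.7% and 11.9% of the gene's counts in WT. The genes nearest in pattern were Gpr161 (0.122), Hs3st4 (0.123) and Kcnab2 (0.145), and the nearest member, Gabra4, was at 0.590.

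**Figure D2:**
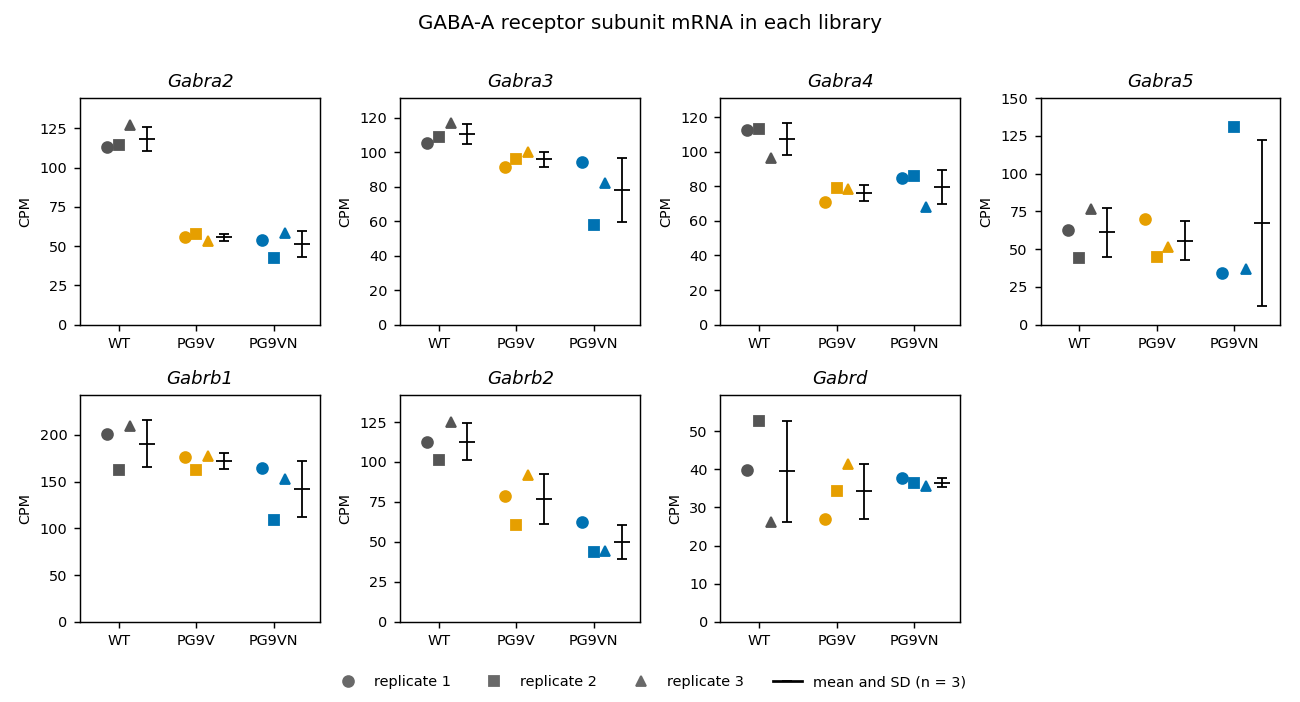
Level of each of the 7 subunits in CPM (vertical axes from 0), by genotype. Symbols are replicates and bars are the mean and SD (n = 3). Gabra2 lies at 113 CPM or more in WT and at 58.2 CPM or less in the mutants, Gabrb2 has its highest values in WT and its lowest in PG9VN, and PG9VN replicate 2 lies at 130.7 CPM for Gabra5 against 34.0 and 36.6 CPM in its group mates.

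Gabrb2 encodes beta2, one of the beta subunits, which help form the GABA binding site. It stood at 112.2, 101.2 and 124.8 CPM in WT, at 78.6, 60.3 and 91.6 CPM in PG9V, and at 62.3, 43.3 and 44.0 CPM in PG9VN. All PG9V libraries were below all WT libraries, and PG9VN replicate 1 lay between the PG9V libraries while its 2 group mates lay below them. The means were 112.7 ± 11.8, 76.8 ± 15.7 and 49.9 ± 10.8 CPM. The log2 differences were -1.18 ± 0.18 in PG9VN from WT, -0.55 ± 0.18 in PG9V from WT and -0.62 ± 0.18 between the mutants. Beta2 is a common beta subunit of the thalamus, and the values of the thalamus markers stand below. Among the genes nearest in pattern were Gucy1a2 (0.134) and Esrrg (0.135).

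Gabrb1 stood at 200.5, 162.7 and 209.1 CPM in WT, at 176.4, 162.4 and 177.5 CPM in PG9V, and at 164.7, 108.5 and 152.8 CPM in PG9VN. The groups overlapped in both comparisons with WT, and the low value of 108.5 CPM was again PG9VN replicate 2. The log2 differences were -0.43 ± 0.16 in PG9VN from WT, or -0.27 without that library, and -0.15 ± 0.16 in PG9V from WT. Among the genes nearest in pattern were Mtx3 (0.060) and Impad1 (0.064), and the nearest member was Gabra3 (0.107).

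Gabrd encodes the delta subunit of receptors outside synapses. It stood at 39.9, 52.6 and 26.1 CPM in WT, at 27.1, 34.3 and 41.5 CPM in PG9V, and at 37.7, 36.3 and 35.6 CPM in PG9VN. WT alone spanned the values of all 9 libraries, and no group stood apart. The log2 differences were -0.11 ± 0.24 in PG9VN from WT and -0.20 ± 0.24 in PG9V from WT. The coding transcript Gabrd-201 held 78.0% ± 8.52 of the gene's counts in WT, 71.5% ± 2.87 in PG9V and 71.2% ± 7.24 in PG9VN, and the noncoding Gabrd-203 held most of the rest. Nearest in pattern were Usp28 (0.135), Pknox1 (0.135) and Tmem132d (0.163).

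Of the 7 subunits 4 were called lower in PG9VN than in WT (Gabra2, Gabra3, Gabra4 and Gabrb2) in a test where 7.22% of all genes were called lower, and none was called higher. In PG9V against WT 1 of 7 was called lower (Gabra2), against 0.149% of all genes. In PG9VN against PG9V 0 of 7 were called lower by edgeR, against 0.667% of all genes, with 1 before adjustment at p under 0.05, 1 under DESeq2 and 0 under limma-voom. The subunits were picked with these comparisons known, so nothing is read from the shares. Libraries did not overlap, with the mutant lower, for 4 of 7 subunits in PG9VN against WT (17.2% of all genes), for 4 of 7 in PG9V against WT (13.2%) and for 0 of 7 between the mutants (8.93%). The median log2 difference over the 7 was -0.43, -0.20 and -0.11 in these comparisons, against 0.02, 0.01 and 0.01 over all tested genes. The comparisons share libraries, so their values are set side by side and not added up.

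The number of subunits called lower in PG9VN against WT was 4 without PG9VN replicate 2. It was 2 when WT replicate 1, WT replicate 2 or PG9VN replicate 3 was left out. Over all genes, 1256 were called lower with every library kept, and 2016 once PG9VN replicate 2 was dropped. The fits with 2 subunits called had 536, 785 and 672 such genes, in the order named. Calls over all genes thus fell in those fits too. Without WT replicate 3, 3 subunits and 559 of all genes were called lower. Whether calls fell more among the subunits than over all genes was not tested. When libraries were scaled on 13 pan-neuronal genes instead of on all genes, the median of all genes moved from 0.02 to 0.37 in PG9VN against WT, to 0.17 in PG9V against WT and to 0.20 between the mutants. On that scale the differences of PG9VN from WT were -0.82 for Gabra2 and -0.81 for Gabrb2, and within 0.11 of 0 for Gabra3, Gabra4 and Gabrb1, while Gabrd turned from -0.11 to 0.24 and Gabra5 went to 0.39. In PG9V against WT on that scale they were -0.93 for Gabra2, -0.39 for Gabrb2 and -0.33 for Gabra4, and those of Gabra5 and Gabrb1 turned to 0.02 each. In bulk tissue, fewer cells of a type and less RNA per cell cannot be told apart.

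**Figure D3:**
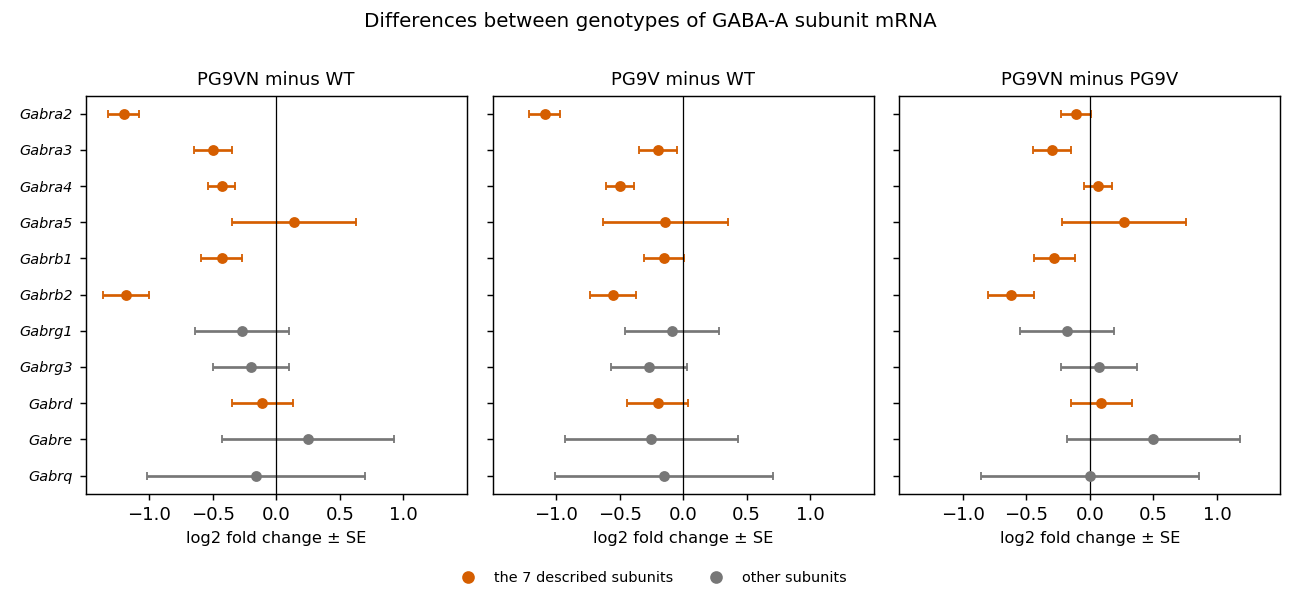
Differences between genotypes (log2 fold change with its SE as the bar, horizontal axis) for 11 GABA-A subunit genes, with the 7 described subunits in orange and others in grey. Gabra2 lies near -1.2 and -1.1 against WT in both mutants and near 0 between them, whereas Gabrb2 lies at -0.62 in the comparison between the mutants.

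Levels of different genes were compared per length, as TPM, which divides by length as well as library total, computed from the estimated counts and annotated transcript lengths. In WT the order among the 7 subunits was Gabra3 at 71.2 TPM, Gabrb2 at 64.9, Gabra4 at 61.5, Gabra2 at 56.1, Gabra5 at 53.4, Gabrd at 44.3 and Gabrb1 at 32.1 TPM. The ranges of neighbouring members from Gabra3 down to Gabrb1 overlapped at each step, so the ranges did not resolve the order of neighbours. Some members further apart did not overlap. The lowest WT value of Gabra3, 66.3 TPM, was above the highest of Gabra4, 64.9 TPM. The highest of Gabrb1, 35.8 TPM, was below the lowest of Gabra5, 38.5 TPM. Of the subunits outside the 7, Gabrg1 was at 29.4 TPM, Gabrq at 11.1, Gabrg3 at 10.4 and Gabre at 3.79 TPM, and the range of Gabrg1 overlapped that of Gabrb1.

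The subunit genes lie in clusters, in which members and other subunits are neighbours. On chromosome 5 the order is Gabrg1, Gabra2, Gabra4 and Gabrb1, and on the X chromosome Gabre, Gabra3 and Gabrq. Gabrb2 lies on chromosome 11, as do Gabrp and Gabra6, and Gabra5 lies on chromosome 7, as does Gabrg3. On chromosome 5, PG9V differed from WT by -0.09 for Gabrg1, -1.09 for Gabra2, -0.50 for Gabra4 and -0.15 for Gabrb1 on the log2 scale. Whether Gabra2 differed more than its neighbours was not tested.

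Of the 9 subunits outside the 7 that are reported here, 7 were tested, and in PG9VN against WT 0 passed by edgeR, where 7.22% of all genes were called lower and 11.5% higher. Before adjustment 0 passed at p under 0.05, and DESeq2 and limma-voom also called 0. In the other comparisons 0 of these 7 passed by edgeR, DESeq2 or limma-voom with all libraries. Before adjustment, 1 was higher and 0 lower in PG9V against WT, and 0 were higher and 2 lower between the mutants, at p under 0.05. Of these, Gabrg1, Gabrg3, Gabre and Gabrq were lowest in the library that stood apart, at 16.2, 16.6, 0.959 and 0.516 CPM. In its group mates they stood at 54.1 and 51.8, 40.7 and 44.2, 11.4 and 13.4, and 26.6 and 29.2 CPM. Gabrq and Gabre are known from the hypothalamus and brainstem, and the hypothalamus markers of that library were near 0. Without it, 2 of the 7 rose in PG9VN against WT, where 2371 of the 17398 genes were called higher. Gabre rose by 0.77 (edgeR, adjusted p = 0.0158) and Gabrq by 0.41 (edgeR, adjusted p = 0.0471). Between the mutants 3 of the 7 rose without PG9VN replicate 2, where 758 of all genes were called higher. By edgeR these were Gabre by 1.04 (adjusted p = 0.0172), Gabrq by 0.58 (adjusted p = 0.0338) and Gabrg3 by 0.41 (adjusted p = 0.0455). Gabra6, a subunit of cerebellar granule cells, stood at 36.3 CPM in PG9V replicate 3 and at 0 to 0.817 CPM elsewhere, and the 7 cerebellum markers of that library summed to 459 CPM against 57.3 to 174 CPM in the others. Without PG9V replicate 2, Gabra6 was called lower in PG9VN than in PG9V (edgeR, adjusted p = 0.0481). Gabrr1 and Gabrr2, the rho subunits of the retina, had means of at most 0.497 and 2.91 CPM.

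The genes that make, move and clear GABA did not pass the test in PG9VN against WT. By edgeR 0 of 8 were called, where 7.22% of all genes were called lower and 11.5% higher. Before adjustment, 3 were lower and 0 higher at p under 0.05, with 1 lower by DESeq2 and 0 by limma-voom, and the median log2 difference was -0.35 against 0.02 over all genes. Slc6a11, a GABA transporter of astrocytes, stood at 575 ± 16.0 CPM in WT and at 401, 130 and 386 CPM in PG9VN. Its log2 difference of -0.91 ± 0.35 did not pass (edgeR, adjusted p = 0.108), but without PG9VN replicate 2 it was -0.55 and passed (adjusted p = 0.00281). Aldh5a1, which breaks down the product of GABA, differed by -0.41 ± 0.15 (edgeR, adjusted p = 0.0999), or -0.22 without that library (adjusted p = 0.0337). Gad1, which makes GABA, ranged from 411 to 744 CPM in WT and from 201 to 417 CPM in PG9VN (-0.69 ± 0.30, edgeR adjusted p = 0.147).

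Of 14 tested genes for receptor assembly, trafficking and anchoring, 1 rose and 2 fell in PG9VN against WT, with a median of -0.16. Over all genes 11.5% were called higher and 7.22% lower, and nothing is read from the count. Without PG9VN replicate 2, 1 was higher and 7 were lower, where 2371 of the 17398 genes were called higher and 2016 lower. On the pan-neuronal scale 3 were higher and 0 lower, where 6532 of all genes were called higher and 181 lower. Without WT replicate 2 or WT replicate 3 none of the 14 passed, and without WT replicate 1 only 1 did, which was lower. Gabarap, which takes part in receptor trafficking and also serves autophagy, rose from 102 ± 3.90 CPM to 150 ± 30.7 CPM (log2 0.56 ± 0.14, edgeR adjusted p = 0.0258). That call was lost without any 1 of the 3 WT libraries (adjusted p from 0.0673 to 0.0893). Gphn, whose product gephyrin forms the scaffold of inhibitory synapses, fell by 0.31 ± 0.08 (edgeR, adjusted p = 0.0288) and turned to 0.06 on the pan-neuronal scale. It was lost without any 1 of the WT libraries, PG9V replicate 1 or PG9VN replicate 3 (adjusted p from 0.0516 to 0.0862). Iqsec3, a gephyrin-binding exchange factor, fell by 0.62 ± 0.15 (edgeR, adjusted p = 0.0196). Its call was lost without WT replicate 2 (-0.46, adjusted p = 0.0588), without WT replicate 3 (-0.65, adjusted p = 0.0501) and on the pan-neuronal scale (-0.25, adjusted p = 0.315).

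The slower, G protein-coupled GABA-B receptors also had lower RNA. In PG9VN against WT 3 of 5 genes of this list fell, where 7.22% of all genes were called lower, with a median of -0.35. Gabbr1 had 822, 805 and 801 CPM in the WT libraries, 672, 621 and 610.4 CPM in the PG9VN libraries, and fell by 0.35 ± 0.08 (edgeR, adjusted p = 0.019). Gabbr2, the other obligate subunit, fell by 0.67 ± 0.19 (edgeR, adjusted p = 0.0352). The auxiliary subunit Kctd16 fell by 0.75 ± 0.17 (edgeR, adjusted p = 0.0172), and Kctd12 differed by -0.16 ± 0.18 (edgeR, adjusted p = 0.57). None of the 5 passed on the pan-neuronal scale, where Gabbr1 was at 0.01 and Kctd12 at 0.18, and none passed without WT replicate 3 or without PG9VN replicate 3. The call of Gabbr1 was also lost without WT replicate 1 or 2, that of Kctd16 without WT replicate 2, and that of Gabbr2 without WT replicate 1, PG9V replicate 1 or 3, or PG9VN replicate 1. Without 1 of these libraries the adjusted p ran from 0.0533 to 0.0792 for Gabbr1, from 0.053 to 0.0569 for Kctd16 and from 0.0547 to 0.117 for Gabbr2.

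Of 6 genes of neuronal chloride transport, which sets whether an open GABA-A channel inhibits, 3 fell and 1 rose in PG9VN against WT, with a median of -0.23. Over all genes 7.22% were called lower and 11.5% higher. Slc12a5, the neuronal chloride exporter KCC2, had 599.6, 600.0 and 617 CPM in the WT libraries, and 502, 422 and 466 CPM in the PG9VN libraries. It fell by 0.39 ± 0.10 (edgeR, adjusted p = 0.0226). The chloride/proton exchanger Clcn3 fell by 0.42 ± 0.08 (edgeR, adjusted p = 0.00865). Slc12a2, the chloride importer NKCC1, fell by 0.41 ± 0.12 (edgeR, adjusted p = 0.0441) and is named after its value was seen. Slc12a7 rose from 5.85 ± 1.23 CPM to 11.5 ± 2.76 CPM (log2 0.98 ± 0.24, edgeR adjusted p = 0.0221). Without 1 library at a time 1 to 3 of the 6 were lower. The call of Slc12a2 was lost without any 1 WT library, any 1 PG9V library or PG9VN replicate 3. The call of Slc12a5 was lost without any 1 WT library or PG9VN replicate 3 (adjusted p from 0.0555 to 0.0813), and that of Slc12a7 when PG9VN replicate 3, WT replicate 1 or WT replicate 2 was left out (adjusted p from 0.0546 to 0.072). On the pan-neuronal scale 0 of the 6 were lower and 2 were higher, where 181 of the 17398 genes were called lower and 6532 higher.

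Over the 50 tested and reported genes of the GABA lists outside the 7 subunits, 3 rose and 8 fell in PG9VN against WT, where 11.5% of all genes were called higher and 7.22% lower. On the pan-neuronal scale 8 were higher and 0 were lower, where 6532 of the 17398 genes were called higher and 181 lower. Without PG9VN replicate 2 the counts were 5 higher and 16 lower, beside 2371 and 2016 over all genes. Leaving out PG9VN replicate 3 gave 1 and 2, beside 1498 and 672. Leaving out WT replicates 1, 2 and 3 in turn gave 0 and 3, 0 and 2, and 1 and 1. Leaving out PG9V replicate 1 gave 2 and 5. Over all genes the last fits called 1294 and 536, 1442 and 785, 1273 and 559, and 1634 and 876, in the same order. In PG9V against WT 0 passed by edgeR, against 1.62% of all genes higher and 0.149% lower. Before adjustment 3 were higher and 1 lower at p under 0.05, and DESeq2 and limma-voom called 0. Between the mutants 0 passed by edgeR, against 2.72% of all genes higher and 0.667% lower. Before adjustment 3 were higher and 10 lower at p under 0.05, and DESeq2 called 1 and 4 and limma-voom 0 and 0.

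Markers of cells and regions also differed between genotypes, and not all in the same direction. By edgeR 7.22% of all genes were called lower and 11.5% higher in PG9VN against WT, and 0.149% were called lower in PG9V against WT. Of 14 thalamus markers 12 were lower in PG9VN than in WT and 2 in PG9V than in WT (edgeR), and their summed level was 1350 to 1615 CPM in WT, 971 to 1023 CPM in PG9V and 484 to 702 CPM in PG9VN. The count of 12 in PG9VN was 11 without PG9VN replicate 2, where 2016 of all genes were called lower. It ran from 9 to 13 without 1 library at a time, and was 14 under DESeq2 and 11 on the pan-neuronal scale. The count of 2 in PG9V was 0 when any 1 WT or PG9V library was left out. Without PG9VN replicates 1, 2 and 3 it was 3, 7 and 4, and it was 5 under DESeq2 and 1 on the pan-neuronal scale. Of 13 pan-neuronal genes 4 were lower in PG9VN, or 11 without PG9VN replicate 2 and 6 under DESeq2, with sums of 8150 to 8303 CPM in WT, 7102 to 7515 CPM in PG9V and 5649.5 to 7633 CPM in PG9VN. Astrocyte markers summed to 3573 to 3761, 4864 to 5578 and 6409 to 8066 CPM, with 4 of 6 higher in PG9VN, and microglia markers summed to 261 to 295, 362 to 444 and 596 to 743 CPM, with 5 of 6 higher. No marker of these 4 lists was at 0 in any library. The part of these shifts in the differences of the subunits was not tested. The log2 differences from WT in PG9V and PG9VN were -1.09 and -1.20 for Gabra2, and -0.55 and -1.18 for Gabrb2.

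**Figure D4:**
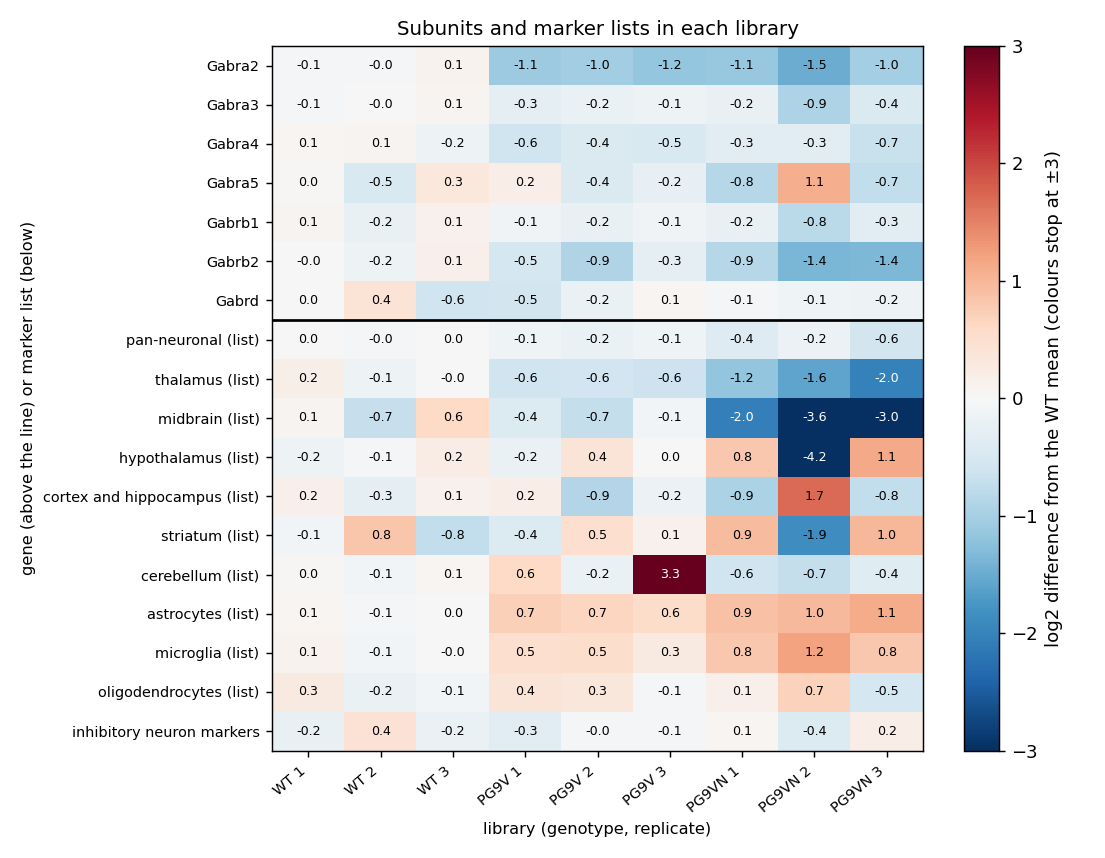
Difference of each library from the WT mean on the log2 scale (colour and printed value, colours stop at -3 and 3) for the 7 subunits above the line and, below it, the mean over the genes of each marker list. Gabra2 is below WT in all 6 mutant libraries, the thalamus list is at -0.58 to -0.63 in PG9V and at -1.19 to -2.02 in PG9VN, and PG9VN replicate 2 stands out at -4.24 for hypothalamus and 1.70 for cortex and hippocampus.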

How the data were processed

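Poly(A) RNA of 9 mice was sequenced from stranded libraries, per the labels' protocols. The values of the deposited table were read as estimated counts of transcripts, since 59.61% of them are not whole at a tolerance of 0.001. The submitters' processing notes name Trimmomatic 0.33, FastQC, HISAT2 2.0.5, kallisto 0.43.1 and build mm39, and do not say which tool made the counts. Of 177 transcripts whose symbol a spreadsheet had turned into a date, 4 could not be resolved and were left out.

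A test on gene counts had been planned, so the deposited estimated counts were summed per gene and rounded to whole numbers. Genes were tested with edgeR 4.0.16 in R 4.3.3 (filterByExpr, TMM, robust quasi-likelihood fit with all 9 libraries and 1 coefficient per genotype), with Benjamini-Hochberg adjustment over 17398 genes at a threshold of 0.05. DESeq2 1.42.0, limma-voom (limma 3.58.1), other scalings, no filter, fits of only the genotypes compared, only libraries with Y-linked counts, single transcripts and leaving out each library were alternatives. The fit was checked on simulated data. Transcript names and lengths came from GENCODE M21, which matched 98.58% of transcript identifiers, 94.65% with their version.

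The 7 subunits and all gene lists were chosen with earlier results of these data known. Named genes were the 7 subunits with their transcripts of at least 1 CPM, all other GABA-A subunits, Grn and Nnt, in each other GABA list the 4 genes with the smallest p in PG9VN against WT, and the 3 genes most like each subunit. Some genes under these rules are not reported here and are left out of the counts over GABA lists. Insyn1, on the assembly list, had no row under that symbol. Replicate numbers are in accession order and pair nothing. The edgeR p-values set each difference against 1 estimate per gene of the spread between mice, with 3 mice per genotype. That estimate is shared over the 3 genotypes, so it also draws on the genotype outside a comparison.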

Additional observations from a re-analysis of the deposited data

How the results depend on the processing

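No paired analysis was possible because the labels give no replicate numbers, and those used here follow accession order. On the pan-neuronal scale, in PG9VN against WT, 6713 genes were called, 6532 of them higher and 181 lower. Among other GABA genes 8 were higher and 0 lower on that scale, and 2 subunits were lower. Differences that changed sign there were Gabrd 0.24, Gabrg1 0.16, Gabrg3 0.21, Gabrq 0.31, Gphn 0.06, Gabbr1 0.01 and Kctd12 0.18. In PG9V against WT it called 477 genes and 1 other GABA gene higher, and between the mutants 943 and 1. The cause was not tested.

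A fit of only the 2 genotypes compared, which has fewer libraries, called 1923 genes in PG9VN against WT, 1 higher and 3 lower of the other GABA genes, and 2 subunits. It called 819 genes, 1 other GABA gene higher and 2 subunits lower in PG9V against WT, and 200 genes between the mutants. Libraries with Y-linked counts, which are also fewer, gave 1332 genes, 0 higher and 2 lower other GABA genes and 2 subunits in PG9VN against WT, and 77 and 203 genes in the other comparisons. DESeq2 called 766 genes and 2 subunits lower in PG9V against WT. Between the mutants it called 1233 genes, 1 higher and 4 lower other GABA genes and 1 subunit.

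Leaving out 1 library at a time called 1830 to 4387 genes in PG9VN against WT, 0 to 5 other GABA genes higher and 1 to 16 lower, and 2 to 5 subunits lower. In PG9V against WT the ranges were 110 to 907 genes, 0 to 1 other GABA genes higher and 1 to 2 subunits lower. Between the mutants they were 19 to 1139 genes, 0 to 3 other GABA genes higher, 0 to 3 lower, and 0 to 1 subunits lower.

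Some signs in PG9VN against WT rested on 1 library. Leaving out 1 at a time gave -0.54 to 0.11 for Gabrg1, -0.44 to 0.12 for Gabrg3, -0.63 to 0.41 for Gabrq, -0.18 to 0.50 for Gabrr2 and -0.23 to 0.77 for Gabre, which was -0.02 without PG9VN replicate 1 and -0.43 by limma-voom. The first 4 changed sign without PG9VN replicate 2. The retained-intron transcript of Gabra2 alone gave 2.86 and 2.69, as described. Of 399 values for the 7 subunits under the alternatives, 374 moved by no more than the spread between replicates and 25 by more. That spread is the SD between single mice within genotypes, and for Gabra5 it takes in the high value of PG9VN replicate 2. Some alternatives leave out only a library of the genotype outside the comparison, which can move a value little. The count of 374 is therefore not a measure of how firm the differences are. The sign was opposite to that of the reported value in 23 of the 399, of which 2, both for this transcript, concern a called difference. Gabra6, Gabrr1 and the minor transcripts rest on few counts, and 3 mice per genotype limit every comparison.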

Other observations

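Of the 10 markers of inhibitory neurons few passed the test. Over all genes 11.5% were called higher and 7.22% lower by edgeR in PG9VN against WT. In PG9VN against WT 1 rose and 0 fell by edgeR, with a median log2 difference of 0.08 against 0.02 over all genes. DESeq2 called 1 higher and 1 lower. On the pan-neuronal scale 3 were higher, where 6532 of the 17398 genes were called higher. The summed level of the 10 markers was 339 to 455 CPM in WT, 345 to 402 CPM in PG9V and 326 to 375 CPM in PG9VN. Sst, the neuropeptide somatostatin, rose from 84.3 ± 5.56 to 113 ± 19.1 CPM (log2 0.42 ± 0.12, edgeR adjusted p = 0.0355). That call was lost without any 1 of the WT or PG9V libraries or PG9VN replicate 3 (adjusted p from 0.0554 to 0.12). Pvalb, the calcium buffer of fast-spiking inhibitory neurons, had 60.4, 44.5 and 51.4 CPM in the WT libraries, 22.1, 45.7 and 9.98 CPM in the PG9VN libraries, and did not pass with all libraries by edgeR (-1.01 ± 0.43, adjusted p = 0.145). It passed by DESeq2 (-1.02, adjusted p = 0.0465) and, by edgeR, without PG9VN replicate 2 (-1.70, adjusted p = 0.00943). Vip differed by 0.60 ± 0.24 (edgeR, adjusted p = 0.115), and passed without PG9VN replicate 1 (0.77, adjusted p = 0.0423) and on the pan-neuronal scale (0.94, adjusted p = 0.00966). Npy differed by 0.68 ± 0.29 (edgeR, adjusted p = 0.144) and passed on that scale (0.98, adjusted p = 0.00919).

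Among the remaining lists, 6 of 10 midbrain markers were lower in PG9VN than in WT by edgeR. Over all genes 7.22% were called lower and 11.5% higher. The midbrain count was 4 without PG9VN replicate 2, and ran from 4 to 7 without 1 library at a time. It was 7 under DESeq2 and 5 on the pan-neuronal scale. The summed level was 121 to 149 CPM in WT, 90.8 to 129 CPM in PG9V and 12.7 to 80.7 CPM in PG9VN. The lowest sum was that of PG9VN replicate 2. In PG9VN against WT 0 of 12 hypothalamus, 0 of 8 cortex and hippocampus, 0 of 8 striatum, 0 of 7 cerebellum and 0 of 6 oligodendrocyte markers passed by edgeR with all libraries. Without PG9VN replicate 2, 4 of the 12 hypothalamus markers were higher and 1 of the cortex and hippocampus list was lower. That fit called 2371 of the 17398 genes higher and 2016 lower. In the cortex and hippocampus list 1 was higher without WT replicate 2, without PG9VN replicate 1 and on the pan-neuronal scale. On that scale 2 oligodendrocyte markers were also higher, where 6532 of all genes were called higher. Before adjustment 1 gene of the cortex and hippocampus list was higher at p under 0.05 and 0 of the other 4 lists passed. DESeq2 called 1 gene of the cortex and hippocampus list higher, and limma-voom called 0 in these lists. Of 3 endothelium markers 1 was higher.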
